A study of Mus musculus with 7 samples.

Results

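The genes described here are 30 members of cholesterol synthesis, uptake and efflux, taken by symbol from a list, and all 30 were among the 16019 genes in the files. They comprise 17 enzymes of synthesis, 2 regulators of synthesis, and 11 genes of sterol uptake, intracellular transport, storage and efflux. All 7 libraries were made from prostates in which experimental autoimmune prostatitis (EAP), an immune inflammation of the gland, had been set up, so both groups share it. In the LIT-927 group (4 libraries, replicates 1 to 4), mice had received LIT927, a synthetic neutralising ligand of the chemokine CXCL12, at 25 mg/kg daily for 14 days by intraperitoneal injection. The vehicle group (3 libraries, replicates 1, 3 and 4) had received methyl-β-cyclodextrin, the solvent, over the same 14 days. The labels give neither strain nor age and do not say that each library is a separate animal. The p-values here therefore reflect only how far these libraries scatter, and that scatter may be technical. Libraries from mice without EAP or without cyclodextrin were not analysed here.

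Mammalian cells make cholesterol from acetyl-CoA through mevalonate, isoprenoid units, squalene and lanosterol. When sterol in the endoplasmic reticulum is low, the transcription factor SREBP2, encoded by Srebf2, is released from INSIG proteins, is cut in the Golgi and switches on nearly all genes of the route. When oxysterols are plentiful, the liver X receptors (LXR, encoded by Nr1h3 and Nr1h2) raise the efflux pumps ABCA1 and ABCG1. Methyl-β-cyclodextrin, the solvent given here, binds cholesterol and is used in culture to draw it out of membranes. The prostate is known for a high content of cholesterol and for secreting it.

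Because SREBP2 works beside the factor NF-Y, promoter sequences of the members were searched for binding motifs. RefSeq (GRCm38.p6, the same build as mm10) gave windows from 250 bases before to 50 bases after the start site for 23 of the 30 members. Both strands were searched for CCAAT, the NF-Y box, for TCACNCCAC, the sterol regulatory element of the classical sterol-responsive promoters, for GGGCGG, the Sp1 box, for CACGTG, the E-box, and for DR4, the LXR direct repeat in its consensus form. No motif contains another, though matches may overlap. A gene was counted where any of its windows held the motif. CCAAT was in 14 of 14 synthesis members with a window and in both regulators, against 41.1% of all 27025 genes with windows of the same length. Of the 7 uptake, transport and efflux members with a window, Soat1 and Npc2 held it. GGGCGG was in 13 of the 14 synthesis members, against 38.2% of these genes. TCACNCCAC was in Hmgcs1 alone of the members, against 1.44% of these genes, CACGTG was in 5 members, against 8.09%, and DR4 was in none, against 0.0148%. The 27025 genes include some outside the 16019 in the files, and shares among expressed genes alone were not counted. Part of each window before the start, free of annotated exons, is shown for 3 genes of the synthesis side with CCAAT and for Apoe, an efflux-side gene without it, to set a window with the motif beside one without. Capitals mark CCAAT, TCACNCCAC and CACGTG, each on either strand.
Hmgcs1 chr13:119690101-119690350, plus strand: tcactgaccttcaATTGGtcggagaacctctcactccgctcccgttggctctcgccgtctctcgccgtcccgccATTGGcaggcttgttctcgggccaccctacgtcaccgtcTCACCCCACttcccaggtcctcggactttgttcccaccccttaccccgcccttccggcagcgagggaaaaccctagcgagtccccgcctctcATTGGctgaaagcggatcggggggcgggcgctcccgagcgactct
Mvk chr5:114444061-114444268, plus strand: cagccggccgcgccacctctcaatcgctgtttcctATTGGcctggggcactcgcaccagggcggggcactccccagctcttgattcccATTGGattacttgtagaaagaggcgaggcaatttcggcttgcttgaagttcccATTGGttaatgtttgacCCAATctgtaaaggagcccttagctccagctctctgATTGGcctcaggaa
Insig1 chr5:28071162-28071362, plus strand: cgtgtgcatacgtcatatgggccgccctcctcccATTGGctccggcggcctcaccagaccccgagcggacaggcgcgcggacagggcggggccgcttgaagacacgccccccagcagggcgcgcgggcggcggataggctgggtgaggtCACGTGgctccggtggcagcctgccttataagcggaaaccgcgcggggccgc
Apoe chr7:19699189-19699438, minus strand: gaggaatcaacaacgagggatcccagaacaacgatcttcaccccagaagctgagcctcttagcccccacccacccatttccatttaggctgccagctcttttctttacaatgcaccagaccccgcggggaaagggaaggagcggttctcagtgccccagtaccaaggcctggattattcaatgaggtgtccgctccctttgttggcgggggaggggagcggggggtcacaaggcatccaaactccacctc

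Whole fragments recovered from the deposited FPKM, which are fragments scaled by gene length and library depth, summed to 32023785 to 35240765 per library, so depth was even. The libraries differed in make-up. The 8 listed seminal vesicle secretion genes took 5.91% of fragments in vehicle replicate 1 and 51.6% in vehicle replicate 4, with the other 5 libraries between 16.8% and 35.3%. FPKM of all other genes fall where such genes take more. Median-of-ratios factors, which measure how high the bulk of genes lies in a library, ran from 0.66 in vehicle replicate 4 and 0.81 in LIT-927 replicate 3 to 1.31 in vehicle replicate 1. Values divided by these factors are called scaled FPKM. LIT-927 replicate 3 and vehicle replicate 3 stood apart, with summed uroplakin and keratin 20 markers of urothelium at 330 and 267 FPKM against 26.8 to 43.7 FPKM in the others, and vas deferens and epididymis markers at 57.9 and 231 FPKM against 1981 to 20137 FPKM. Prostate lobe secretion was present in all libraries (5977 to 166827 FPKM). In bulk tissue, fewer cells of a type and less RNA per cell cannot be told apart.

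The comparison asked whether sterol genes differed between mice given LIT-927 and mice given solvent. Higher and lower, in counts of genes, refer to group means of log2(FPKM + 1). Of the 17 synthesis enzymes, 16 were higher with LIT-927, with a median difference of 0.24 on that scale, while 55.5% of all genes were higher and the median over all genes was 0.02. Among the 8905 genes at 1 FPKM or more in every library, which include 27 of the 30 members, 69.1% were higher and the median was 0.10. Both regulators were also higher. Of the 11 uptake, transport and efflux members, 5 were higher and 6 lower, with a median difference of -0.02. Abca1 and Npc1 count among the 5 by a log2 difference of 0.01 each, and their mean FPKM were slightly lower. Over all 30 members 23 (76.7%) were higher, and 20 (66.7%) after scaling, where 50.3% of all genes and 60.4% of the 8905 were. No member passed the test: limma's adjusted p was 0.998 for each, and 0% of the 16019 genes were called. At an unadjusted p under 0.05 limma had 1 member, Fdft1, and 589 genes (3.68%, with 0.718% higher and past that p), and voom on recovered fragments also called 0 genes. After scaling, 3 members (Fdft1, Tm7sf2 and Lrp1) and 8.42% of all genes were under 0.05 unadjusted, and limma again called 0. The synthesis median was -0.01 without vehicle replicate 4, the library with the lowest factor, where the median over all genes was -0.12. The synthesis median was 0.14 without LIT-927 replicate 3, 0.22 after scaling, and 0.00 with both changes together. Over all genes the median in these settings was 0.07, 0.00 and -0.01, in that order.

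**Figure D1:**
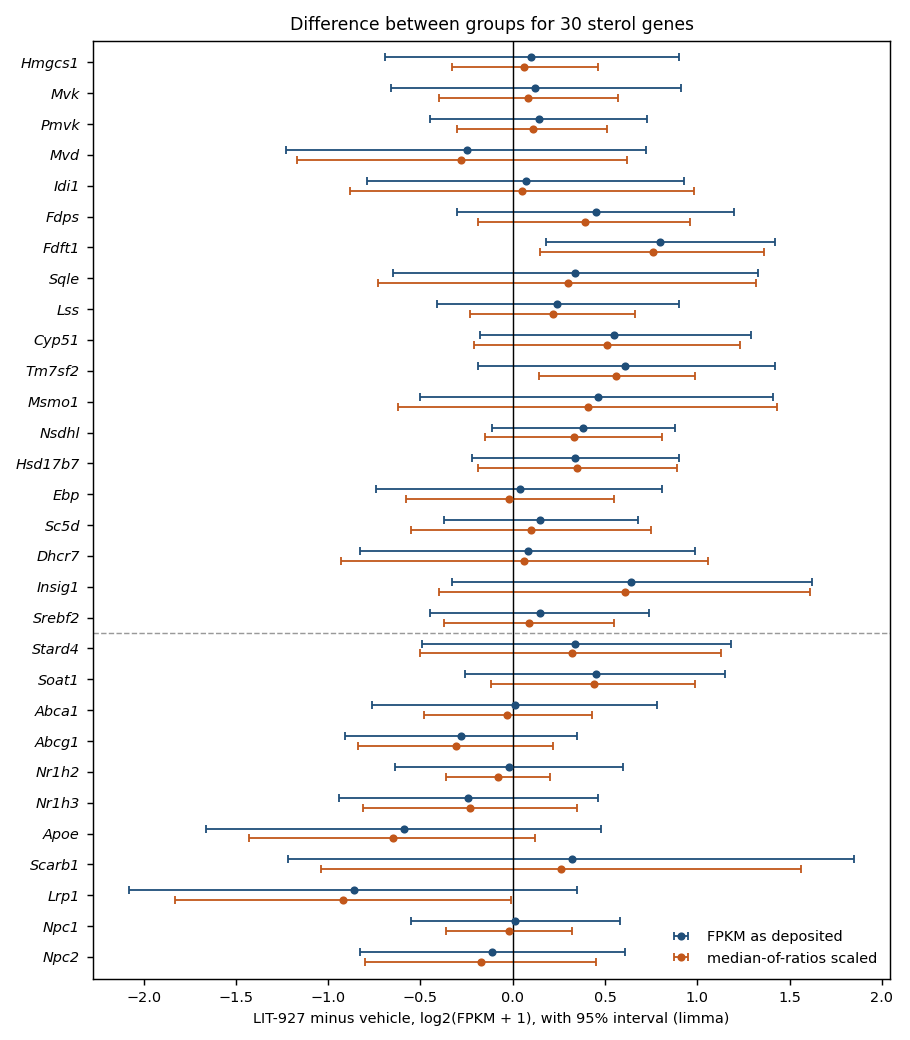
Points show the LIT-927 minus vehicle difference of each member in log2(FPKM + 1), with limma's 95% interval, for FPKM as deposited (blue) and after median-of-ratios scaling (orange); the dashed line parts synthesis and its regulators from the rest. The interval of Fdft1 lies above 0 on both scales (0.18 to 1.42 as deposited), that of Tm7sf2 above 0 and that of Lrp1 below 0 after scaling alone, and before adjustment over all genes.

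The squalene step held the member with the largest higher difference. Fdft1 encodes squalene synthase, the enzyme that commits isoprenoid units to sterols (mm10 chr14:63145150-63179578, minus strand). It was at 6.95, 6.50 and 3.70 FPKM in vehicle replicates 1, 3 and 4, and at 9.52, 10.9, 13.2 and 8.40 FPKM in LIT-927 replicates 1 to 4. Every LIT-927 library was above every vehicle library, as deposited and after scaling. The group means were 10.5 ± 2.08 FPKM (SD, n = 4) and 5.72 ± 1.76 FPKM (SD, n = 3), a ratio of 1.84. LIT-927 exceeded vehicle by 0.80 in log2(FPKM + 1), with an SE of 0.27 (limma unadjusted p = 0.0177, adjusted p = 0.998). The exact permutation p was 0.0286, two-sided, the smallest that the 35 divisions of 7 libraries allow. Over all genes, 1.08% had LIT-927 above vehicle in every library and 2.23% reached that smallest permutation p. With single libraries left out it ranged from 0.56 to 0.94, and it was 0.69 without LIT-927 replicate 3, the highest library. After scaling the difference was 0.76 (limma adjusted p = 0.574), with a range of 0.55 to 0.90. On scaled values the exact permutation p was 0.0571, and 4.04% of all genes had LIT-927 above vehicle in every library.

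Fdft1 shares 774 of its 4227 annotated exon bases (18.3%) with Ctsb, the cathepsin B gene on the opposite strand. The labels do not give the strand setting of the counting, so reads from the shared stretch cannot be assigned to either gene. Ctsb was at 214, 130 and 122 FPKM with vehicle and at 212, 218, 68.0 and 177 FPKM with LIT-927. Its lowest library, LIT-927 replicate 3, was the highest for Fdft1, and its difference between groups was 0.03. The part of the shared stretch in the Fdft1 result was not tested.

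Sqle, squalene epoxidase and a rate-limiting enzyme of the sterol branch, was at 12.2, 10.8 and 5.09 FPKM with vehicle and at 10.7, 6.30, 21.3 and 11.6 FPKM with LIT-927. The groups overlapped, with LIT-927 replicate 3 the highest and vehicle replicate 4 the lowest. The difference was 0.34 (SE 0.43; limma adjusted p = 0.998), and 0.06 without LIT-927 replicate 3. Lss, which closes squalene epoxide into lanosterol, was flatter, at 3.94 ± 0.473 FPKM (SD, n = 4) against 3.31 ± 1.29 FPKM (SD, n = 3). Its value of 1.82 FPKM in vehicle replicate 4 was the one vehicle library below the LIT-927 range of 3.40 to 4.35 FPKM.

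**Figure D2:**
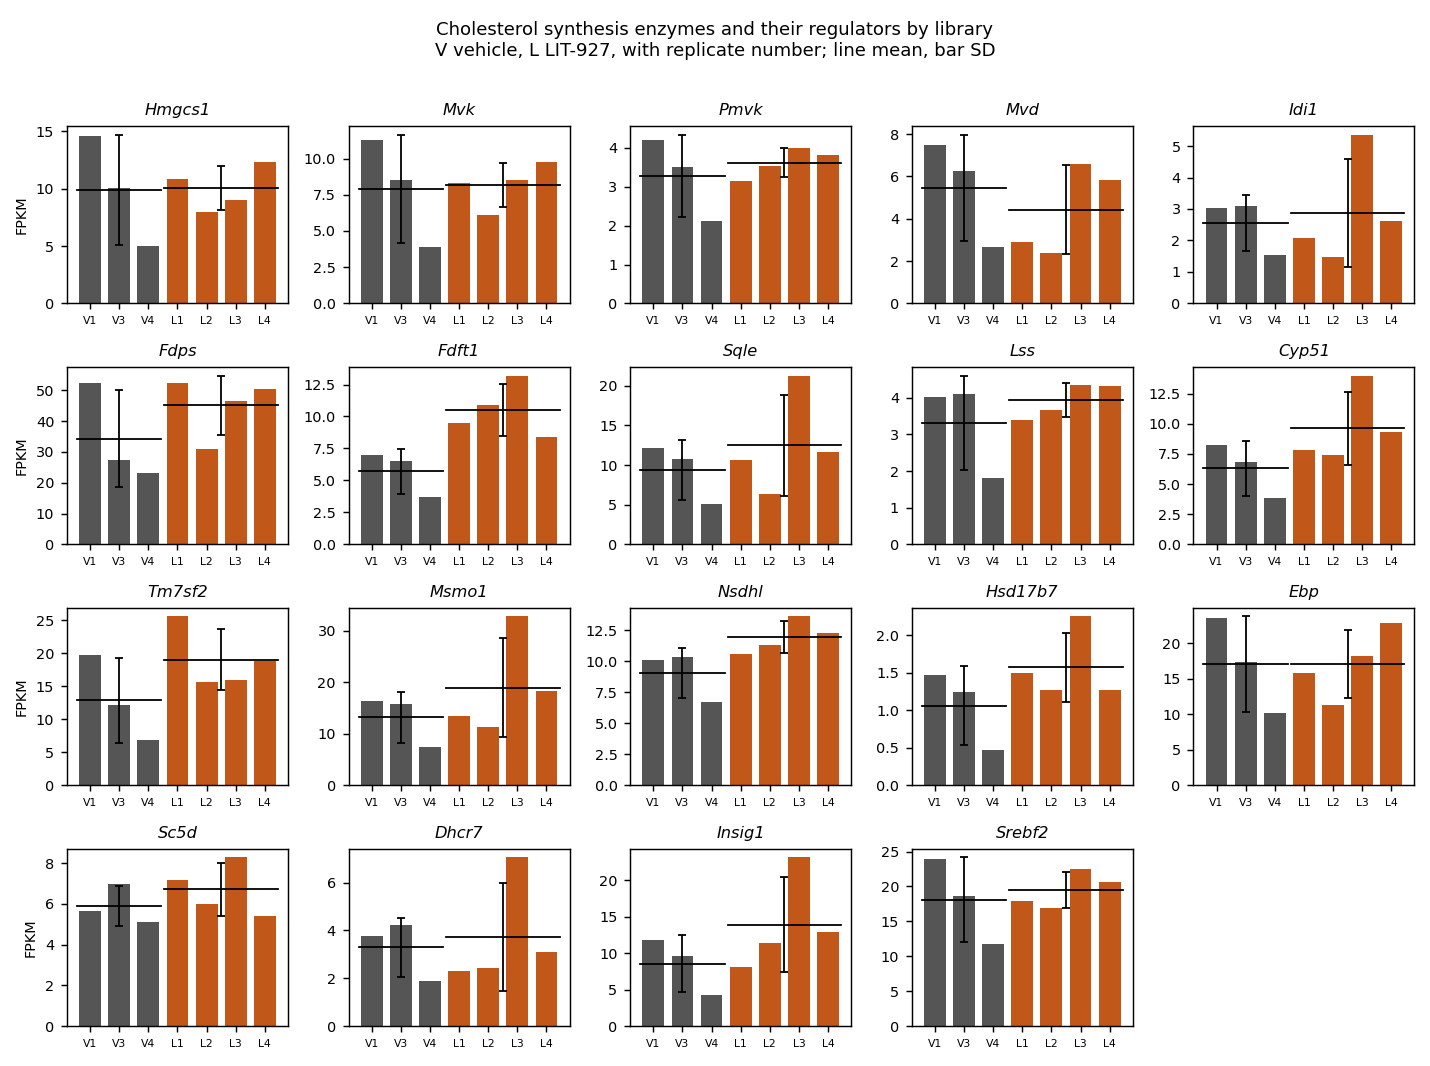
Bars show deposited FPKM of 17 synthesis enzymes and 2 regulators in each library (V vehicle, L LIT-927, numbered by replicate), with the group mean as a line and its SD. All 4 LIT-927 bars stand above the 3 vehicle bars for Fdft1 (8.40 to 13.2 against 3.70 to 6.95 FPKM) and Nsdhl. V4 is the lowest bar for 15 of the 17 enzymes, against 52.8% of all genes and 70.7% of the 8905 at 1 FPKM or more in every library. L3 is the highest for 10, against 1441 of all 16019 genes and 801 of the 8905.

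The enzymes of the mevalonate segment, from HMG-CoA to farnesyl diphosphate, had a median difference of 0.11. Hmgcs1, HMG-CoA synthase, was at 10.8, 7.99, 9.04 and 12.3 FPKM with LIT-927, inside the vehicle range, which ran from replicate 4 through 10.1 FPKM in replicate 3 to 14.6 FPKM in replicate 1. Its difference of 0.10 (95% interval -0.69 to 0.90) turned to -0.27 without vehicle replicate 4. Mvk, mevalonate kinase, and Pmvk, which adds the next phosphate, were as close, at 8.17 ± 1.52 against 7.92 ± 3.72 and at 3.62 ± 0.370 against 3.28 ± 1.06 FPKM. Mvd, the decarboxylase that makes isopentenyl diphosphate, was the single synthesis enzyme with a lower mean. Mvd was at 7.48, 6.26 and 2.67 FPKM with vehicle and at 2.88, 2.40, 6.58 and 5.85 FPKM with LIT-927, so each group held high and low libraries. The difference was -0.25 (SE 0.42), and -0.01 without vehicle replicate 1.

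Idi1, which isomerises isopentenyl diphosphate, was at 3.03, 3.09 and 1.54 FPKM with vehicle and at 2.08, 1.47, 5.36 and 2.63 FPKM with LIT-927. LIT-927 replicate 3 was far above the rest, and the difference of 0.07 became -0.20 without it. Fdps, farnesyl diphosphate synthase and the target of nitrogen-containing bisphosphonates, was the most abundant synthesis transcript per length. Fdps was at 52.5, 27.3 and 23.2 FPKM with vehicle and at 52.3, 31.1, 46.7 and 50.5 FPKM with LIT-927. Vehicle replicate 1 matched the highest LIT-927 libraries, and the difference was 0.45 (SE 0.32; exact permutation p = 0.257). The annotation places 26.7% of Fdps exon bases inside a read-through gene on the same strand, Gm43738, which the files do not list.

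Between lanosterol and cholesterol, all 8 enzymes were higher with LIT-927 on the log2 scale, and 7 of 8 after scaling. The exception was Ebp, the sterol isomerase, at 17.0 FPKM in both groups (SD 4.81, n = 4, and 6.79, n = 3), whose difference went from 0.04 to -0.02. Nsdhl, a sterol dehydrogenase of C4 demethylation (mm10 chrX:72918557-72958514, plus strand), was at 10.1, 10.3 and 6.68 FPKM with vehicle and at 10.6, 11.3, 13.6 and 12.3 FPKM with LIT-927. The lowest LIT-927 library lay just above the highest vehicle library, so the groups were apart by a small gap, and they overlapped after scaling. It differed by 0.38 (SE 0.21), with a limma adjusted p of 0.998 and an exact permutation p of 0.0286. After scaling it differed by 0.33 and the exact permutation p was 0.200.

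Tm7sf2, a sterol C14 reductase (mm10 chr19:6062821-6068373, minus strand), showed the reverse: its groups overlapped as deposited and were apart after scaling. Tm7sf2 was at 15.1, 11.3 and 10.3 scaled FPKM with vehicle and at 22.5, 15.5, 19.7 and 16.3 scaled FPKM with LIT-927. On that scale LIT-927 was above in every library, which 4.04% of all genes also showed. The scaled difference was 0.56 with an SE of 0.18, against 0.61 with an SE of 0.35 as deposited. On scaled values limma gave an unadjusted p of 0.0170 and an adjusted p of 0.574, and the exact permutation p was 0.0286. Tm7sf2 shares 12.1% of its exon bases with Vps51 on the same strand, and Vps51 differed by 0.07. Cyp51, lanosterol demethylase and the target shared with azole antifungals, was apart on the scaled values as well. It was at 6.33, 6.32 and 5.73 scaled FPKM with vehicle and at 6.85, 7.29, 17.2 and 8.02 scaled FPKM with LIT-927. LIT-927 replicate 3 stood far above the others, which lay just over the vehicle range, and the scaled difference of 0.51 (limma adjusted p = 0.660) was 0.23 without it.

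Msmo1, the C4 methyl oxidase, was at 16.4, 15.7 and 7.42 FPKM with vehicle and at 13.4, 11.4, 32.8 and 18.3 FPKM with LIT-927. Its difference of 0.46 (SE 0.41) was 0.17 without LIT-927 replicate 3, and after scaling without that library 0.01. Hsd17b7, a sterol ketoreductase, was the scarcest synthesis enzyme, at 1.57 ± 0.465 FPKM (SD, n = 4) against 1.06 ± 0.520 FPKM (SD, n = 3) and on 95 to 411 fragments per library. Sc5d, the lathosterol desaturase, was at 6.72 ± 1.29 against 5.92 ± 0.978 FPKM, with 1.63-fold between its highest and lowest library as deposited and 2.35-fold after scaling. Dhcr7, the last reductase of the Kandutsch-Russell route and the gene mutated in Smith-Lemli-Opitz syndrome, was at 3.75, 4.25 and 1.90 FPKM with vehicle. With LIT-927 it was at 2.32, 2.42, 7.06 and 3.10 FPKM, so its difference of 0.08 turned to -0.21 without LIT-927 replicate 3.

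Of the regulators, Insig1 had the larger difference. INSIG1 holds the SREBP escort SCAP in the endoplasmic reticulum, and its gene is itself an SREBP target (mm10 chr5:28071363-28078662, plus strand). Insig1 was at 11.8, 9.55 and 4.27 FPKM with vehicle and at 8.06, 11.4, 23.1 and 12.9 FPKM with LIT-927. The groups overlapped and LIT-927 replicate 3 was the highest. The difference was 0.64 (SE 0.42; 95% interval -0.33 to 1.62; limma adjusted p = 0.998), and 0.38 without LIT-927 replicate 3. Srebf2, the gene of SREBP2, differed by 0.15 (SE 0.26), at 19.5 ± 2.58 FPKM (SD, n = 4) against 18.1 ± 6.06 FPKM (SD, n = 3).

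Among the genes of transfer and storage, Stard4, a soluble carrier of cholesterol between membranes, was at 5.21 ± 2.10 against 3.88 ± 1.54 FPKM. Soat1 encodes ACAT1, which esterifies cholesterol for storage in droplets. Soat1 was at 2.85, 2.33 and 1.04 FPKM with vehicle and at 3.81, 3.20, 3.38 and 2.01 FPKM with LIT-927. All but LIT-927 replicate 4 exceeded the vehicle range, and the difference was 0.45 (SE 0.30; exact permutation p = 0.200), with a range of 0.17 to 0.64 when single libraries were left out.

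On the efflux side, 4 of 5 members were lower with LIT-927 on the log2 scale as deposited and all 5 after scaling, and none passed the test. Abca1, the pump that loads apolipoprotein A-I, was level, at 3.13 ± 0.992 FPKM (SD, n = 4) against 3.20 ± 1.57 FPKM (SD, n = 3), with differences of 0.01 as deposited and -0.03 scaled. Abcg1, which exports sterol to high-density lipoprotein, was at 1.66, 0.584 and 0.574 FPKM with vehicle and at 1.09, 0.615, 0.0642 and 0.596 FPKM with LIT-927. LIT-927 replicate 3 held 12 fragments of Abcg1 and the other libraries 115 to 325. The difference of -0.28 (SE 0.27) shrank to -0.10 when LIT-927 replicate 3 was left out, and to -0.03 when vehicle replicate 1 was. It was -0.74 with a pseudocount of 0.1 and -0.98 with voom, which shrink low values less. Nr1h2, which encodes the ubiquitous LXR beta, was at 36.7 ± 6.90 against 37.9 ± 12.2 FPKM. Nr1h3, which encodes LXR alpha, was far lower per length, at 1.49 ± 0.466 against 2.04 ± 1.04 FPKM, a difference of -0.24 (SE 0.30).

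Apoe encodes apolipoprotein E, a carrier of sterol secreted by macrophages and glia, and was the most abundant member per length (mm10 chr7:19696109-19699188, minus strand). It was at 205, 116 and 103 FPKM with vehicle and at 130, 107, 39.5 and 114 FPKM with LIT-927. LIT-927 replicate 3 was the lowest and the other LIT-927 libraries lay within the vehicle range. The difference was -0.59 (SE 0.46; limma adjusted p = 0.998), and -0.21 without LIT-927 replicate 3. Macrophage markers were lower too: 12 of 12 had a lower mean with LIT-927, and their summed level was 50.2 to 151 FPKM against 144 to 405 FPKM. Vehicle replicate 4, the lowest vehicle library for Apoe, had a sum of 230 FPKM, above the 144 FPKM of vehicle replicate 3. As for Apoe, the sum as deposited was highest in vehicle replicate 1 and lowest in LIT-927 replicate 3. After scaling, the sum was highest in vehicle replicate 4 (346, with 310 scaled FPKM in vehicle replicate 1). Scaled Apoe was at 155 and 157 in these 2 libraries. On that scale too, both Apoe and the sum were lowest in LIT-927 replicate 3. None of the 12 was at 0 in that library, and their part in the Apoe result was not tested.

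**Figure D3:**
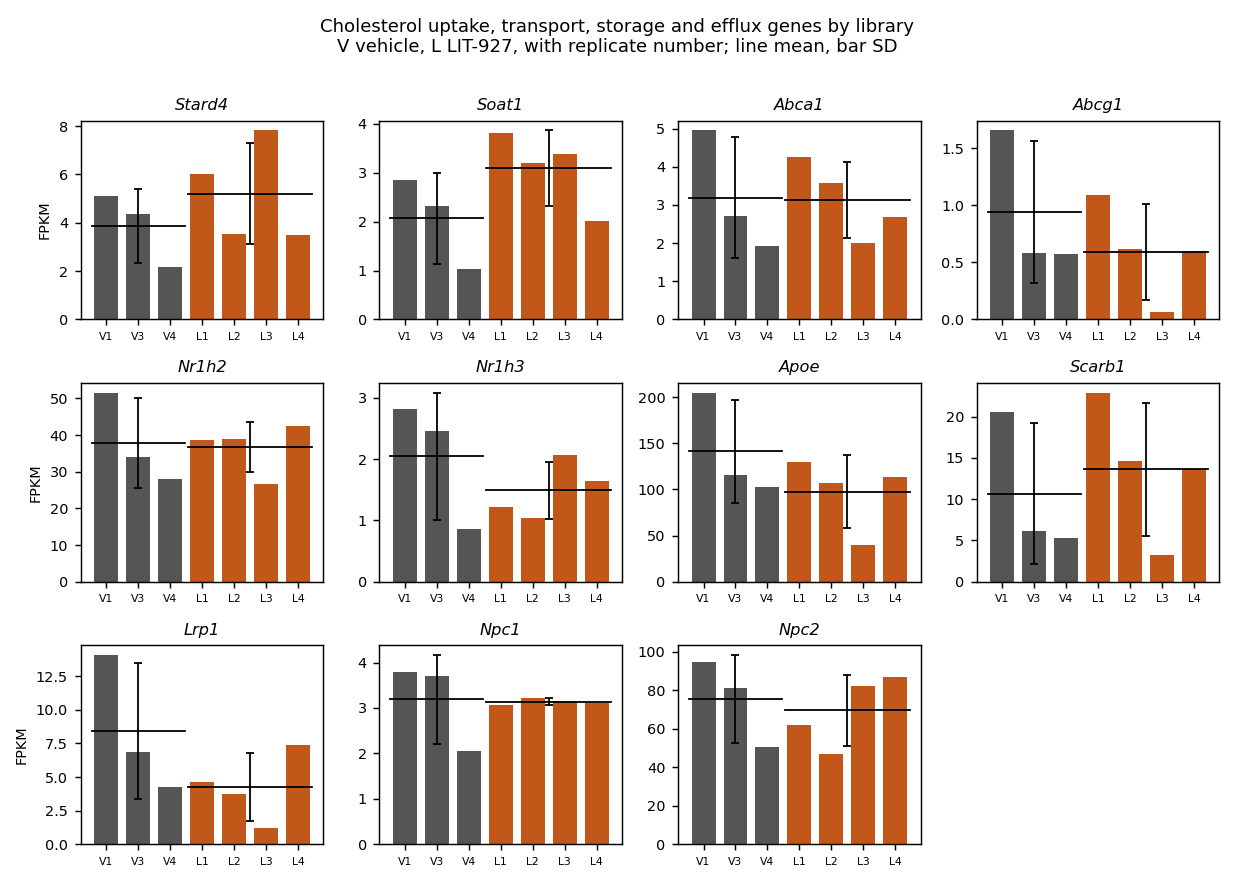
Bars show deposited FPKM of the 11 transfer, storage, efflux and uptake members by library, with the group mean as a line and its SD. L3 is the lowest bar for Abcg1, Apoe, Scarb1 and Lrp1 (1.20 against 3.75 to 14.1 FPKM for Lrp1), while Npc1 spans 2.06 to 3.80 FPKM. L3 is also the lowest for Nr1h2, by a small gap (26.7 against 27.9 FPKM in V4).

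Lrp1, the large endocytic receptor that clears apolipoprotein E particles and acts in stromal cells, had the largest lower difference of the members (mm10 chr10:127538161-127621148, minus strand). It was at 14.1, 6.89 and 4.29 FPKM with vehicle and at 4.64, 3.75, 1.20 and 7.39 FPKM with LIT-927. The groups overlapped as deposited, while after scaling the LIT-927 libraries lay at 1.48 to 6.38 scaled FPKM and the vehicle libraries at 6.39 to 10.8 scaled FPKM. Groups lay apart in either direction in 9.03% of all genes on that scale, against 3.20% as deposited. The difference was -0.86 (SE 0.52; limma adjusted p = 0.998); leaving out vehicle replicate 1 gave -0.45, and leaving out LIT-927 replicate 3 gave -0.49. Scaled values differed by -0.92 with an SE of 0.38 (limma unadjusted p = 0.0481, adjusted p = 0.592), and the exact permutation p was 0.0571. Fibroblast markers were lower in 10 of 10 (73.5 to 247 against 94.2 to 516 FPKM), smooth muscle markers in 8 of 8 (875 to 5925 against 2923 to 10345 FPKM) and endothelial markers in 8 of 8 (6.94 to 46.5 against 27.3 to 101 FPKM). Each sum was lowest in LIT-927 replicate 3 and highest in vehicle replicate 1, as Lrp1 was, and none of these markers was at 0 in LIT-927 replicate 3. Their part in the Lrp1 result was not tested.

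Scarb1, the high-density lipoprotein receptor SR-BI, was at 20.5, 6.10 and 5.31 FPKM with vehicle and at 22.9, 14.6, 3.22 and 13.7 FPKM with LIT-927. It varied 7.10-fold between libraries, and each group held high and low ones. Its difference was 0.32 (SE 0.66), rising to 0.84 without LIT-927 replicate 3 and falling to 0.00 without vehicle replicate 4 or LIT-927 replicate 1. Both libraries with high urothelial markers were low for Scarb1 and had the lowest vas deferens and epididymis markers (57.9 and 231 FPKM), but vehicle replicate 4, with 1981 FPKM of those markers, was low for Scarb1 too. The part of those markers in the Scarb1 values was not tested. Npc1, which lifts cholesterol out of the lysosomal membrane, was level at 3.14 ± 0.0737 FPKM (SD, n = 4) and 3.19 ± 0.979 FPKM (SD, n = 3). Npc2, its soluble partner and an abundant secretory protein of the male tract, was at 69.5 ± 18.6 against 75.5 ± 22.8 FPKM.

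The pattern that crossed the members lay in LIT-927 replicate 3, and it was picked out after the values were seen. After scaling, 15 of the 17 synthesis enzymes and both regulators were highest in that library, against 27.4% of all genes and 37.1% of the 8905 genes at 1 FPKM or more in every library. None of the 17 was lowest there. Sqle stood at 26.2 scaled FPKM in that library, 2.61-fold the next highest library, Msmo1 at 40.3 (2.56-fold) and Insig1 at 28.5 (2.53-fold). Idi1, Dhcr7, Cyp51 and Hsd17b7 were 2.30-fold, 2.20-fold, 2.15-fold and 2.11-fold the next highest. The exceptions were Hmgcs1 (11.1, with 11.2 in vehicle replicate 1) and Tm7sf2 (19.7, with 22.5 in LIT-927 replicate 1).

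The 11 uptake, transport and efflux members were divided in that library. Stard4, Soat1, Nr1h3, Npc1 and Npc2 were the highest of all 7 libraries there, while Abcg1, Apoe, Scarb1 and Lrp1 were the lowest, as were 29.0% of all genes. Apoe stood there at 48.5 scaled FPKM, against 98.7 to 157 scaled FPKM elsewhere. Lrp1 stood at 1.48, against 3.69 to 10.8 scaled FPKM elsewhere. Vehicle replicate 3, the other library with high urothelial markers, was at 14.5 scaled FPKM for Msmo1 and 8.85 for Insig1, inside the ranges of the remaining 5 libraries (11.2 to 15.8 and 6.42 to 11.2). It lay above those 5 libraries for Dhcr7 (3.94 against 2.04 to 2.87), Idi1 (2.87 against 1.45 to 2.32), Mvd (5.80 against 2.36 to 5.73) and Lss (3.80 against 2.74 to 3.74), and below them for Fdps (25.3 against 30.6 to 46.0). Vehicle replicate 3 was also above them for Npc1 (3.44 against 2.68 to 3.18) and Nr1h3 (2.28 against 1.02 to 2.15). For Nr1h2 (31.7 against 34.1 to 42.0) and Scarb1 (5.66 against 7.99 to 20.1) it was below them. LIT-927 replicate 3 also had the highest sums of epithelial markers (1261 against 676 to 939 scaled FPKM) and of prostate lobe secretion (205147 against 5254 to 70459 scaled FPKM), and the lowest of macrophage, fibroblast, smooth muscle and endothelial markers. The prostate sum came mostly from Sbp (141312) and Spink1 (61825), the 2 of 7 genes highest there, while Tgm4 was lowest there (31.9 against 60.1 to 6400). These 3 genes were picked after their values were seen. The part of this make-up in its sterol values was not tested.

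**Figure D4:**
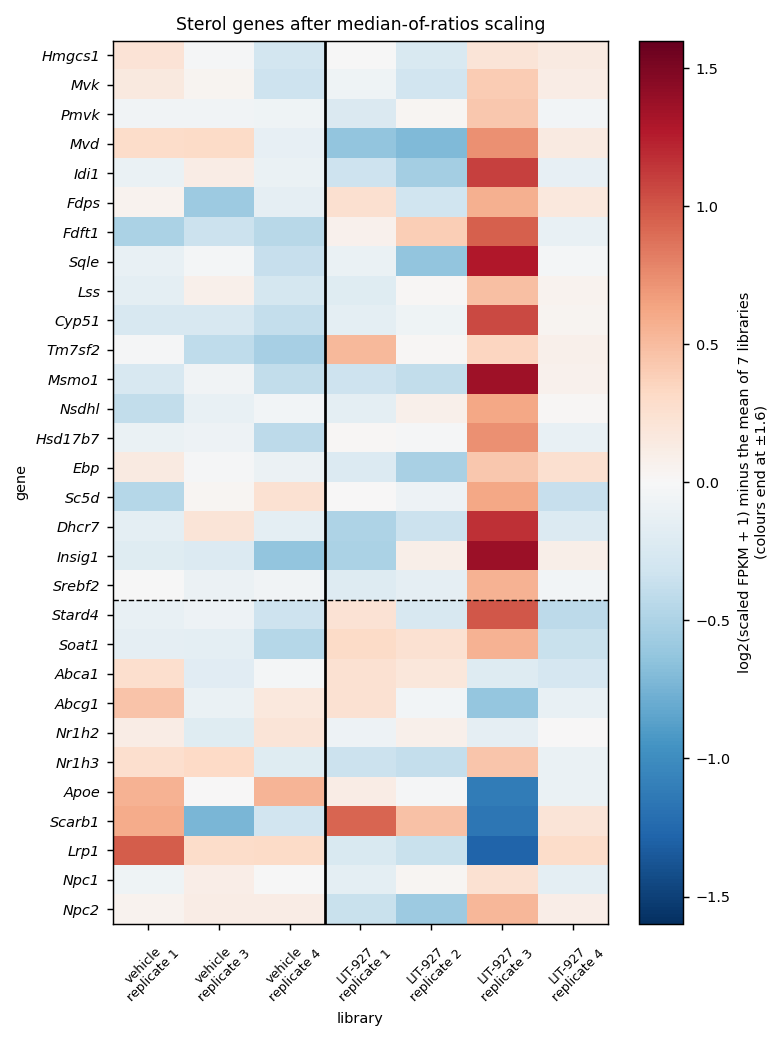
Each cell shows a member's log2(scaled FPKM + 1) in a library minus its mean over the 7 libraries, with red for above and blue for below; the solid line parts vehicle from LIT-927 and the dashed line parts synthesis and its regulators from the rest. The LIT-927 replicate 3 column is red for the synthesis side, with Sqle, Msmo1 and Insig1 2.61-fold, 2.56-fold and 2.53-fold the next library, and blue for Abcg1, Apoe, Scarb1 and Lrp1.

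**Figure D5:**
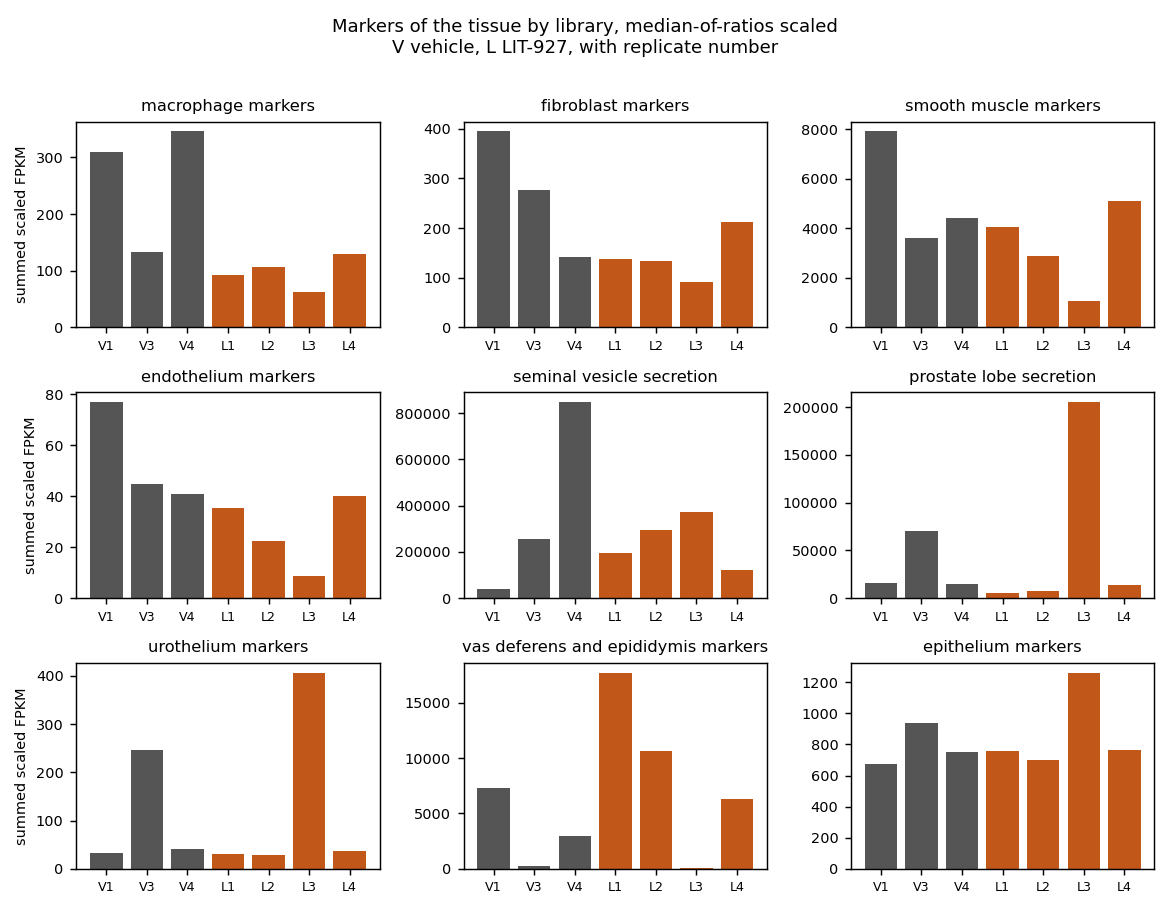
Bars show summed scaled FPKM of each marker list in each library (V vehicle, L LIT-927, numbered by replicate). L3 has the lowest bars for macrophage (61.7), fibroblast (90.3), smooth muscle (1076) and endothelium (8.54) markers and the highest for prostate lobe secretion, urothelium and epithelium, where V3 has the next highest bars.

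Beyond the members, 64 other sterol genes of 67 looked for were in the files, and 45 had a higher mean with LIT-927 and 19 a lower one, with a median difference of 0.11 and no call. Their share of 70.3% was near the 69.1% of the genes at 1 FPKM or more in every library. By group, 7 of 8 further synthesis genes, 11 of 15 genes of SREBP control, 14 of 20 genes of uptake and intracellular transport and 13 of 21 genes of efflux, LXR response and oxysterol metabolism were higher. Srebf1, the gene of the sister factor SREBP1, was at 25.0, 19.6 and 13.0 FPKM with vehicle and at 25.6, 23.4, 26.1 and 24.3 FPKM with LIT-927, a difference of 0.40 with overlapping groups. After scaling its groups were apart, at 18.2 to 19.6 with vehicle and 21.0 to 32.1 scaled FPKM with LIT-927 (limma adjusted p = 0.602). On that scale 3 of the 64 genes lay wholly higher and 2 wholly lower with LIT-927. Of all genes, 9.03% lay apart in either direction.

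Ephx2, an epoxide hydrolase whose other domain is a phosphatase, was at 18.3, 0.651 and 3.94 FPKM with vehicle and at 44.3, 20.2, 0.181 and 14.9 FPKM with LIT-927. Abcg5, part of a sterol pump with ABCG8, was at 0.419, 0.0980 and 0.317 FPKM against 1.92, 4.52, 0 and 1.11 FPKM. Both were lowest in the pair of libraries with the lowest vas deferens and epididymis markers, whose part was not tested. Their differences were 1.10 and 0.93, with overlapping groups. Cd36, a scavenger and fatty acid receptor of fat, endothelium and macrophages, was at 5.85, 7.36 and 1.25 FPKM with vehicle and at 0.830, 0.864, 1.42 and 2.47 FPKM with LIT-927, a difference of -1.13 (limma unadjusted p = 0.0501). Apod, a lipocalin of stromal cells, differed by -0.93, with 59.5 FPKM in vehicle replicate 1 and 7.16 to 22.1 FPKM elsewhere. Smpdl3a, a phosphodiesterase related to acid sphingomyelinase and named after its values were seen, was the sole gene of the 64 whose groups were apart as deposited, at 24.2, 30.3 and 30.2 FPKM with vehicle and 16.4, 12.7, 19.7 and 18.7 FPKM with LIT-927. Its difference was -0.72 (limma unadjusted p = 0.00935, adjusted p = 0.998), its groups overlapped after scaling, and 2.12% of all genes lay wholly lower with LIT-927.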

How the data were processed

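Per the labels' protocols, total RNA of mouse prostate was extracted with TRIzol and libraries were made with a VAHTS Universal V6 kit. Per the submitters' processing notes, fastp, HISAT2, HTSeq and mm10 were used; no label or header gives their versions, roles, annotation or strand setting. Each library's deposited table holds FPKM computed by the authors; its header says only expression, so the unit rests on the values themselves. Low values are whole multiples of a gene's step, from which whole fragments were recovered within 0.01 for all 16019 genes.

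Libraries were grouped by the treatment in the labels. limma 3.58.1 (R 4.3.3) was run with a mean-variance trend on log2(FPKM + 1) of all genes in all 7 libraries, without filter or covariate, which understates changes of low genes. The call threshold was 0.05 after Benjamini-Hochberg adjustment over all genes. Exact permutation tests were two-sided, over 35 divisions of the libraries, and were run for every gene. The fit was tested on simulated data. Members and lists were chosen with earlier results of these data known. Named genes are all members; of the other sterol genes Srebf1 and the 2 largest differences each way among genes reaching 1 FPKM. Some other genes the rule names are not reported here. Positions come from GENCODE M21 (GRCm38). Tried as alternatives were 3 scalings, 0.1 as the pseudocount, a filter keeping genes at 1 FPKM in 3 or more libraries, voom, a replicate block, and leaving out libraries. Promoters, tables and figures used Python 3.11.15, pandas 2.3.3 and matplotlib 3.10.9.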

Additional observations from a re-analysis of the deposited data

Results flagged for a closer look

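LIT-927 replicate 3 lay far above the other LIT-927 libraries for 6 members after scaling and for 1 member as deposited, with a gap to the next library that took most of the group's range. The scaled values were 6.59 FPKM for Idi1 (others 1.45 to 2.27), 17.2 for Cyp51 (6.85 to 8.02), 40.3 for Msmo1 (11.2 to 15.8), 2.77 for Hsd17b7 (1.10 to 1.31), 8.68 for Dhcr7 (2.04 to 2.68) and 27.7 for Srebf2 (15.8 to 17.8). As deposited, Dhcr7 was at 7.06 FPKM there, with 2.32 to 3.10 FPKM in the others. Chance alone marks about 1 group in 20 in this way, and 30 members were looked at on each scale in the same 4 libraries. The share of all genes marked in this way was not counted. After scaling, 27.4% of all genes were highest in LIT-927 replicate 3, so 1 in 20 need not be the background for that library.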

How the results depend on the processing

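No member and no gene passed limma's adjusted threshold in any of 23 other settings, and the smallest adjusted p of a member in them was 0.316. Genes with an unadjusted p under 0.05 numbered 589 in the reported fit and 259 to 1939 in the others. Of the members, 15 kept the sign of their difference in every setting that gave them a value; Abcg1, one of these, was removed by the 1 FPKM filter. The count of members with a higher mean, 23, ranged from 11 (without vehicle replicate 4) to 25 when single libraries were left out, and was 13 without LIT-927 replicate 3 after scaling and 13 after scaling without both libraries with high urothelial markers, a setting added after the data were seen. The share of all genes that were higher moved too, from 25.0% without vehicle replicate 4 to 70.9% without vehicle replicate 1. It was 46.2% after scaling without LIT-927 replicate 3 and 47.9% after scaling without both libraries with high urothelial markers.

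Signs turned to the following values. With median-of-ratios scaling: Ebp -0.02, Abca1 -0.03, Npc1 -0.02. With upper-quartile scaling: Ebp -0.04, Abca1 -0.05, Npc1 -0.04. With seminal vesicle secretion genes taken out of the total: Ebp -0.02, Abca1 -0.03, Npc1 -0.03. With voom: Idi1 -0.06, Ebp -0.02, Dhcr7 -0.05, Abca1 -0.02, Npc1 -0.03. Without both libraries with high urothelial markers: Idi1 -0.08, Dhcr7 -0.04, Nr1h2 0.07, and with scaling too Pmvk -0.02, Idi1 -0.24, Sqle -0.02, Ebp -0.18, Sc5d -0.05, Dhcr7 -0.21, Srebf2 -0.11, Abca1 -0.07, Npc1 -0.06. The ranges over single libraries left out, with and without scaling, were -0.27 to 0.42 for Hmgcs1, -0.26 to 0.40 for Mvk, -0.07 to 0.30 for Pmvk, -0.31 to 0.25 for Idi1, -0.09 to 0.60 for Sqle, -0.04 to 0.39 for Lss, -0.28 to 0.30 for Ebp, -0.09 to 0.26 for Sc5d, -0.33 to 0.25 for Dhcr7, -0.12 to 0.36 for Srebf2, -0.22 to 0.29 for Abca1, -0.21 to 0.22 for Nr1h2, -0.03 to 0.88 for Scarb1, -0.20 to 0.12 for Npc1 and -0.38 to 0.08 for Npc2. Without vehicle replicate 4 or 1 the median over all genes was -0.12 or 0.14 on unscaled values, so differences of genes at large moved as well. The cause of the turned signs was not tested.

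With the replicate number as a block, 0 genes were called, Abca1 turned to -0.05 and Npc2 to 0.06. Same-numbered libraries deviated from their group means with correlations of 0.58, 0.76 and -0.17. The labels do not say whether the numbers pair libraries. These correlations cannot decide it, since they were taken on unscaled values, which also carry shifts of the whole library. A count model was not run, since the files hold no counts.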
